A study of Homo sapiens with 21 samples.

Results

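The 10 genes described here are ATF4, the transcription factor of the amino acid and integrated stress response, and 9 genes known to be switched on by ATF4 or its partners, namely DDIT3, TRIB3, NUPR1, CHAC1, SESN2, DDIT4, ASNS, PSAT1 and PHGDH. They were taken by gene name from the 28808 genes in the study's expression tables. That rule uses no measured value, but the 10 genes were chosen with earlier results of these data known. All 10 were listed in each of the 6 tables and stood above 1 FPKM in all 21 libraries, the lowest value being 1.52 FPKM for ASNS. FPKM are fragments per kilobase of gene, scaled to a total per library. The length is that of all annotated exons of a gene together, so an order of genes by FPKM depends on it.

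The RNA came from C3A cells, a line cloned out of the HepG2 human liver tumour line and labelled wild type, so every library stems from a single clone of tumour cells. The medium held added glutamine and non-essential amino acids. Cells were exposed for 48 h to the herbicide glyphosate (5.6 µM, which is 0.95 µg/mL), to AMPA, into which microbes break glyphosate down (34 µM, which is 3.7 µg/mL), or to 2,4-D, a herbicide that mimics plant auxin (2.5 µM, which is 0.56 µg/mL). The remaining exposures were the mixtures AMPA+2,4-D and glyphosate+2,4-D, each compound at the concentration it had alone. Each of the 5 exposures has 3 libraries and unexposed cells have 6, which are numbered 1 to 6 and were also used as a pair of sets, 4-6 and 1-3, since these sets differ. No culture time is given for the unexposed libraries, so whether they were also kept for 48 h is not known here. Nothing in the labels ties replicates to separate cultures, so p-values measure the spread between these libraries, which may be technical.

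The pathway works as follows. Uncharged tRNA, misfolded protein in the endoplasmic reticulum, heme shortage or viral RNA activate kinases that phosphorylate the initiation factor eIF2alpha. General protein synthesis then falls, while upstream reading frames let ribosomes reach the ATF4 coding sequence more often. ATF4 protein is therefore set largely by translation and is not measured by its mRNA. With other bZIP proteins ATF4 binds C/EBP-ATF sites and raises genes that make, import and charge amino acids, together with feedback and death genes. In liver cells it is known for adjusting the synthesis of serine, glycine and asparagine to amino acid supply.

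Libraries held 15.2 to 24.35 M reads in exposed cells and 17.41 to 19.77 M in unexposed cells, recovered from the FPKM values. All 10 hepatocyte markers tested reached 1 FPKM, with a summed level of 11720 to 13460 FPKM in exposed and 7079 to 11920 in unexposed libraries. Of the markers of other cell types, none of 3 for endothelial cells and none of 4 for fibroblasts (of which 1 was listed) reached 1 FPKM in any library. Of 4 leukocyte markers (2 listed) LYZ alone did, the leukocyte sum being 473 to 625 FPKM in exposed and 324 to 615 in unexposed libraries, and of 2 bile duct markers KRT19 alone did. The part of these levels in the results was not tested. AMPA+2,4-D replicates 1 and 3 stood apart in genes that the tables class as antisense, which summed to 1770 to 1818 FPKM there, 2616 to 3580 in the other 13 exposed libraries and 2777 to 3466 in unexposed ones. FPKM summed to 294984 to 327953 per exposed and 276823 to 294902 per unexposed library. The library total implied by the FPKM was 0.942 to 1.009 times the recovered reads in exposed libraries. In unexposed libraries it was 1.029 to 1.082 times the recovered reads. The labels do not state how the FPKM were scaled. The labels name no batch, so exposure and a batch shared by the exposed libraries cannot be told apart. On the FPKM scale the median log2 change over all genes tested was 0.0005 to 0.0137 in the 5 exposures. After rescaling to TPM (FPKM set to a total of 1 M per library) it was -0.14 to -0.08. The part of the scaling in these medians was not tested.

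Most of the 10 genes were lower in every exposure. Against the 6 unexposed libraries, 8 of the 10 genes were called lower with glyphosate (25.1% of the 13405 genes tested were called lower), 8 with AMPA (24.8%), 8 with 2,4-D (22.6%), 8 with glyphosate+2,4-D (22.7%) and 9 with AMPA+2,4-D (24.4%), and none was called higher (27.7%, 28.0%, 25.0%, 25.4% and 26.0% in the same order). Called means an adjusted p under 0.05 in limma on log2(FPKM + 1), with Benjamini-Hochberg adjustment over all genes tested, so a fold change is one of FPKM + 1 and understates that of low genes. The 8 genes ATF4, DDIT3, TRIB3, NUPR1, CHAC1, SESN2, PSAT1 and PHGDH were the same in all 5 exposures, and all 15 exposed libraries lay below all 6 unexposed ones for each of them. The shares of all genes tested that meet these rules in all 5 exposures at once were not counted. That holds for the calls in all 5 exposures given below too. With ASNS, 9 of the 10 genes lay wholly below the unexposed libraries with glyphosate (21.3% of all genes tested) and with AMPA (20.5%), and 8 did with 2,4-D (18.9%), glyphosate+2,4-D (19.0%) and AMPA+2,4-D (18.2%). The 5 comparisons share the unexposed libraries, and in such bulk RNA fewer cells with a transcript and less of it per cell cannot be told apart. Over the 10 genes the median log2 change was -0.56 to -0.39. DDIT4 and ASNS were the exceptions.

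**Figure D1:**
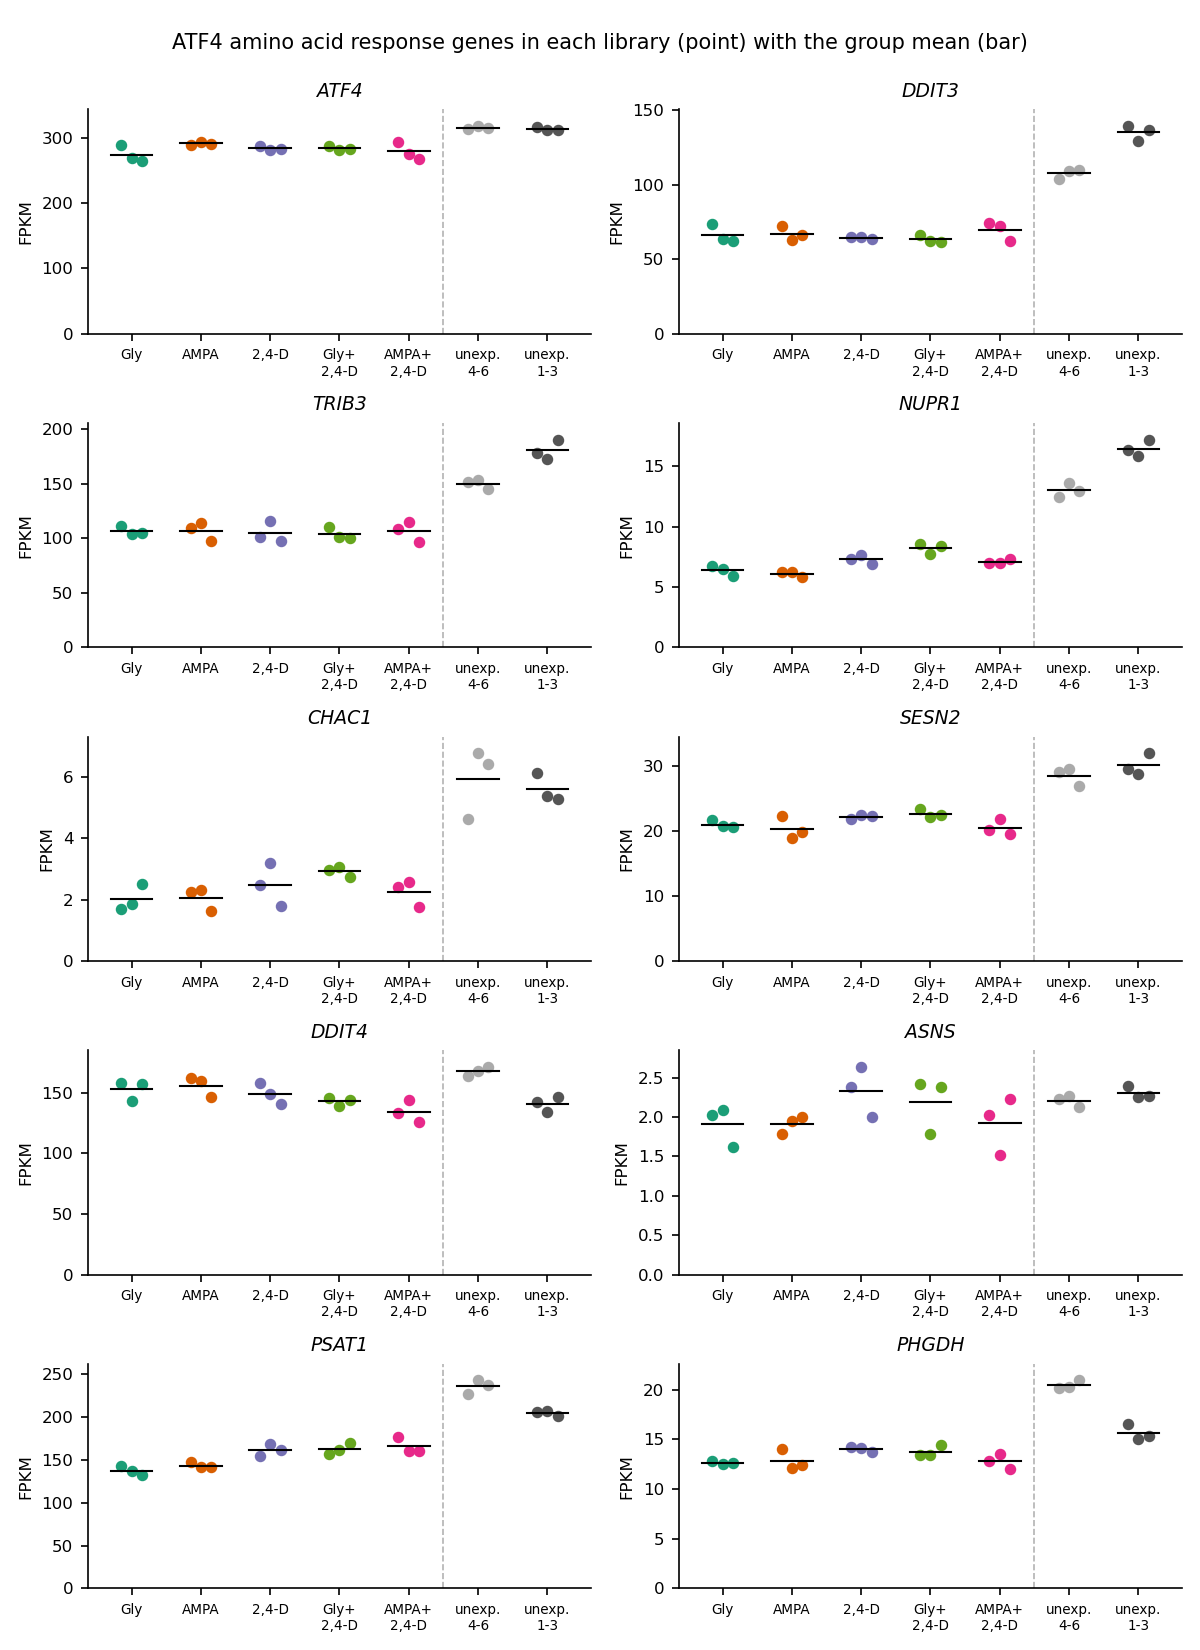
FPKM of each of the 10 genes in every library (points) with the mean of the group (bar), exposures left of the dashed line and the unexposed sets 4-6 and 1-3 right of it, each axis starting at 0. For 8 genes every exposed point lies below every unexposed point; DDIT4 and ASNS overlap.

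ATF4 (ENSG00000128272, GRCh38 chromosome 22, 39519695 to 39522685, plus strand) had the highest FPKM of the 10 genes and the smallest fall among the 8. It lay at 288, 269 and 264 FPKM with glyphosate, at 289, 294 and 291 with AMPA and at 287, 282 and 282 with 2,4-D. With glyphosate+2,4-D ATF4 had 287, 281 and 283 FPKM and with AMPA+2,4-D 294, 275 and 268, against a lowest value of 312, a median of 314 and a highest of 318 in unexposed cells. The groups did not overlap, and the unexposed libraries lay close together. Its log2 change was -0.20 to -0.11 (SE 0.03), with limma adjusted p = 4.87e-05 to 0.00786. Between 25.2% and 34.7% of the genes tested had a lower change than ATF4. After rescaling to TPM its log2 change was -0.30 to -0.25, below the shifted median of all genes.

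DDIT3, TRIB3 and NUPR1 are transcriptional regulators and feedback genes of the response. DDIT3 (ENSG00000175197, chromosome 12, 57516588 to 57521737, minus strand) encodes CHOP, a bZIP partner of ATF4 tied to stress-induced cell death. It lay at 73.9, 63.8 and 62.0 FPKM with glyphosate, 72.6, 62.7 and 65.98 with AMPA, 65.1, 64.8 and 63.5 with 2,4-D, 66.2, 62.3 and 61.5 with glyphosate+2,4-D, and 74.4, 72.6 and 62.1 with AMPA+2,4-D. Unexposed replicates 4-6 had 104, 109 and 110 FPKM and replicates 1-3 had 140, 130 and 137. Every exposed library was below the lowest unexposed library, and the exposures overlapped each other. The log2 change against all unexposed libraries was -0.92 to -0.79 (SE 0.09), with limma adjusted p = 2.78e-07 to 1.56e-06, and 0.649% to 2.27% of the genes tested had a lower one. Of its 1307 bases of exon, 355 overlap MARS, the methionyl-tRNA synthetase gene on the opposite strand, which lay at 29.9 to 35.1 FPKM in exposed cells, 34.3 to 35.9 in unexposed 4-6 and 41.5 to 42.7 in unexposed 1-3. DDIT3 exons also overlap MBD6 on the opposite strand (58 bases, 7.43 to 9.92 FPKM over the libraries) and AC022506.1 on the same strand (105 bases). The labels do not state whether counting used the strand, and the part of shared reads in the DDIT3 result was not tested.

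TRIB3 (ENSG00000101255, chromosome 20, 362835 to 397559, plus strand) encodes a pseudokinase that binds ATF4 and CHOP and restrains them. It lay between 97.1 and 116 FPKM over the 15 exposed libraries, with a median of 105, against 146 to 153 in unexposed 4-6 and 173 to 191 in unexposed 1-3. TRIB3 varied less between exposures than any of the other 9 genes by the F test among them (limma adjusted p = 0.999), with group means of 104 to 107 FPKM. Its log2 change against unexposed cells was -0.66 to -0.62 (SE 0.08), with limma adjusted p = 5.09e-06 to 8.87e-06.

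NUPR1 (ENSG00000176046, chromosome 16, 28532708 to 28539174, minus strand) encodes a small stress-induced chromatin-associated protein. It had 6.76, 6.52 and 5.89 FPKM with glyphosate, 6.28, 6.21 and 5.86 with AMPA and 7.33, 7.63 and 6.92 with 2,4-D. With glyphosate+2,4-D it had 8.59, 7.70 and 8.38 and with AMPA+2,4-D 7.02, 6.96 and 7.30, against 12.5, 13.7 and 13.0 in unexposed 4-6 and 16.4, 15.9 and 17.2 in unexposed 1-3. The lowest unexposed library was thus well above the highest exposed one. Its log2 change was -1.14 to -0.76 (SE 0.08), with limma adjusted p = 2.98e-09 to 5.36e-07.

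CHAC1, SESN2 and DDIT4 act downstream, on glutathione and on growth signalling. CHAC1 (ENSG00000128965, chromosome 15, 40952962 to 40956519, plus strand) encodes an enzyme that degrades glutathione and is among the most inducible ATF4 targets. It had 1.70, 1.85 and 2.52 FPKM with glyphosate, 2.24, 2.31 and 1.64 with AMPA, 2.49, 3.20 and 1.78 with 2,4-D, 2.97, 3.08 and 2.75 with glyphosate+2,4-D, and 2.40, 2.59 and 1.78 with AMPA+2,4-D. Unexposed 4-6 had 4.63, 6.78 and 6.43 FPKM and unexposed 1-3 had 6.13, 5.39 and 5.29. The values rest on 54 to 105 reads per exposed library and 174 to 284 per unexposed one, and the groups did not overlap. Its log2 change of -1.16 to -0.78 (SE 0.13) reached the lowest value of any of the 10 genes, with glyphosate, and 0.433% to 1.71% of the genes tested had a lower one (limma adjusted p = 8.14e-07 to 8.42e-05).

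The letters TGATGNAA, the core of the C/EBP-ATF site through which ATF4 acts, were searched on both strands from 250 bases before to 50 after each start in RefSeq promoters (GRCh38.p14). They stood in 2 of the 9 genes that matched, ASNS and CHAC1, against 1217 of 27305 genes in the table (4.46%), so the window held the letters for both CHAC1, which was called lower in all 5 exposures, and ASNS, which was called in none. NUPR1 was not among the 9. Capitals mark the match, read on the strand of each gene, and the lines give the stretch around it.
ASNS, chr7:97872458-97872487, minus strand: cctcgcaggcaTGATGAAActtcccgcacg
CHAC1, chr15:40953251-40953280, plus strand: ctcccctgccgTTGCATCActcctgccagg
In ASNS the match runs from 68 to 61 bases before 1 of its 2 RefSeq starts, and the window of the other start holds none. In CHAC1 it is on the opposite strand, 209 to 202 bases before the RefSeq start. Both matches fall inside the gene's span in the study's tables. A match describes letters and shows no binding. Sequence outside the window was not searched, so a gene without a match may hold the site elsewhere.

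SESN2 (ENSG00000130766, chromosome 1, 28259527 to 28282491, plus strand) encodes sestrin 2, a leucine sensor that restrains mTORC1. It lay between 18.9 and 23.3 FPKM over the exposed libraries, with a median of 21.8, against 26.9 to 29.4 in unexposed 4-6 and 28.8 to 31.9 in unexposed 1-3. The exposed libraries were all lower, and the unexposed sets overlapped each other. The log2 change was -0.51 to -0.36 (SE 0.05), with limma adjusted p = 2.39e-07 to 1.74e-05.

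DDIT4 (ENSG00000168209, chromosome 10, 72273920 to 72276036, plus strand) encodes REDD1, another restraint on mTORC1 that also answers hypoxia and glucocorticoids. It had 158, 143 and 157 FPKM with glyphosate, 162, 159 and 146 with AMPA, 158, 149 and 140 with 2,4-D, 146, 139 and 144 with glyphosate+2,4-D, and 133, 143 and 126 with AMPA+2,4-D. Unexposed 4-6 had 164, 168 and 171 FPKM and unexposed 1-3 had 142, 134 and 146. All exposed libraries were below unexposed 4-6 and most overlapped unexposed 1-3 or lay above them. DDIT4 was called lower against all unexposed libraries with AMPA+2,4-D alone (log2 -0.20 ± 0.07, SE, limma adjusted p = 0.0308), and that call was lost without AMPA+2,4-D replicates 1 and 3 (0.560), without either of them (0.0835 and 0.155), and without unexposed replicate 4, 5 or 6 (0.0561, 0.0590 and 0.0598). Its antisense gene DDIT4-AS1, with 847 bases overlapping DDIT4 exons, lay at 3.55 and 2.55 FPKM in those AMPA+2,4-D replicates, 14.5 to 19.8 in the other exposed libraries and 16.3 to 21.6 in unexposed ones. The part of shared reads in the DDIT4 result was not tested.

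ASNS, PSAT1 and PHGDH make amino acids. ASNS (ENSG00000070669, chromosome 7, 97852118 to 97872542, minus strand) encodes asparagine synthetase, the textbook target of the amino acid response, and had the lowest FPKM of the 10 genes. It lay between 1.52 and 2.64 FPKM over the exposed libraries, with a median of 2.02, against 2.12 to 2.26 in unexposed 4-6 and 2.25 to 2.40 in unexposed 1-3. Its log2 difference was -0.17 to 0.03 (SE 0.08) and did not pass in any exposure (limma adjusted p = 0.108 to 0.783). After rescaling to TPM, ASNS was called lower with glyphosate (limma adjusted p = 0.0303), AMPA (0.0134) and AMPA+2,4-D (0.0280). Of its 4455 bases of exon, 1985 overlap AC079781.5, a processed transcript gene on the same strand, at 0.0742 to 0.360 FPKM over the libraries. The part of shared reads in the ASNS level and result was not tested.

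PHGDH and PSAT1 catalyse the first and second steps of serine synthesis. PSAT1 (ENSG00000135069, chromosome 9, 78297143 to 78330093, plus strand) had 143, 137 and 132 FPKM with glyphosate and 147, 141 and 142 with AMPA. With 2,4-D it had 154, 169 and 161 FPKM, with glyphosate+2,4-D 157, 162 and 170, and with AMPA+2,4-D 177, 161 and 161, against 226.8, 242.7 and 237.9 in unexposed 4-6 and 206, 208 and 201 in unexposed 1-3. All exposed libraries were below all unexposed ones, and those given glyphosate or AMPA without 2,4-D were the lowest. The log2 change was -0.68 to -0.40 (SE 0.06), with limma adjusted p = 3.92e-08 to 1.98e-05. PHGDH (ENSG00000092621, chromosome 1, 119648411 to 119744226, plus strand) lay between 12.0 and 14.4 FPKM over the exposed libraries, with a median of 13.4, against 20.2 to 20.9 in unexposed 4-6 and 14.97 to 16.5 in unexposed 1-3. Its log2 change of -0.47 to -0.33 (SE 0.09) was called in all 5 exposures (limma adjusted p = 0.000211 to 0.00457), and with AMPA+2,4-D not without replicates 1 and 3 of that group (0.0561).

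The sets of unexposed libraries differed in 6 of the 10 genes, in both directions (31.6% of all genes were called). In unexposed 4-6 against 1-3, DDIT3 (log2 -0.33 ± 0.07, SE), TRIB3 (-0.26 ± 0.07) and NUPR1 (-0.32 ± 0.05) were lower, which 15.9% of genes were, and DDIT4 (0.25 ± 0.06), PSAT1 (0.20 ± 0.04) and PHGDH (0.37 ± 0.05) were higher, which 15.7% were. The limma adjusted p ran from 2.33e-05 to 0.00920, and the sets did not overlap for these genes, as for 22.6% of all genes below and 22.9% above. So the regulators DDIT3, TRIB3 and NUPR1 and the serine enzymes PSAT1 and PHGDH, which were all lower in exposed cells, differed in opposite directions between unexposed sets. ATF4, ASNS, CHAC1 and SESN2 were not called between the sets. The split was known from earlier results of these data, so these p-values describe it.

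Against either set by itself the same 8 genes were lower in all 5 exposures. Against unexposed 4-6, 8 genes were called with glyphosate (51.1% of all genes tested were called in either direction) and AMPA (51.3%), and 9 with 2,4-D (46.4%), glyphosate+2,4-D (46.7%) and AMPA+2,4-D (50.3%), all lower, the ninth being DDIT4. Against unexposed 1-3, 8 genes were called, all lower, with glyphosate (57.5%), 2,4-D (54.1%), glyphosate+2,4-D (54.8%) and AMPA+2,4-D (55.3%). Of all genes tested, 26.3% to 27.7% were called lower against unexposed 1-3 over the 5 exposures. With AMPA 9 were called (58.0%), 8 lower and DDIT4 higher (log2 0.15 ± 0.06, SE, limma adjusted p = 0.0342), as were 30.3% of all genes. That call was lost in several settings given below, and DDIT4 against unexposed 4-6 was called lower with 2,4-D (-0.17), glyphosate+2,4-D (-0.23) and AMPA+2,4-D (-0.32). The direction of DDIT4 thus turned with the set it was compared with. For DDIT3 the log2 change was -0.76 to -0.63 against unexposed 4-6 and -1.08 to -0.95 against 1-3, and for NUPR1 -0.98 to -0.61 and -1.30 to -0.92. For PHGDH the order was the other way, with -0.65 to -0.51 against 4-6 and -0.29 to -0.15 against 1-3. For ATF4 both ranges were nearly the same, -0.20 to -0.11 each.

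**Figure D2:**
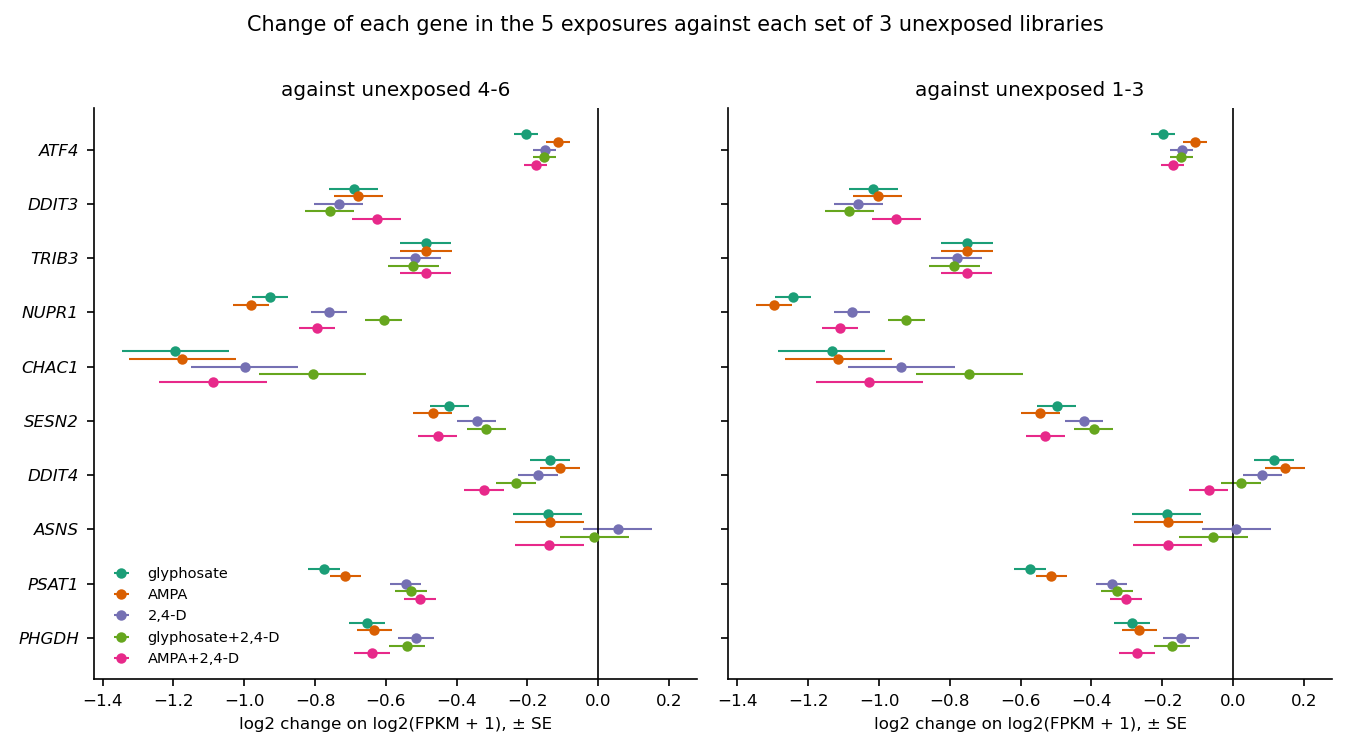
Log2 change (± SE, 3 libraries each) of the 10 genes in the 5 exposures against unexposed libraries 4-6 (left) and 1-3 (right). The 8 genes called in every exposure lie left of 0 in both panels; DDIT4 lies left of 0 against 4-6 and mostly right of it against 1-3.

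Between exposures, none of the 10 genes was called by the F test among the 5 exposures (0.395% of all genes were), the lowest values being those of PSAT1 (limma adjusted p = 0.0913) and NUPR1 (0.140). No gene of the 10 was called for glyphosate+2,4-D against glyphosate (0.00% of all genes) or against 2,4-D (0.00%), for AMPA+2,4-D against AMPA (2.71%) or against 2,4-D (0.00%). Voom on the recovered reads called none of them, whereas rescaling to TPM called PSAT1 higher in AMPA+2,4-D than in AMPA (limma adjusted p = 0.0380), and the F test with the exposed groups alone called PSAT1 (0.0231) and NUPR1 (0.0201). An unadjusted p under 0.05 was reached by CHAC1, PSAT1 and NUPR1, all higher, for glyphosate+2,4-D against glyphosate (1066 of all genes, 7.95%). DDIT4, lower, and PSAT1, higher, reached it for AMPA+2,4-D against AMPA (2446 genes, 18.2%). For both comparisons with 2,4-D alone none of the 10 genes reached it (578 and 1415 of all genes). With no filter on low values these counts of 0 over all genes became 24 and 7 for the glyphosate mixture and 2 for AMPA+2,4-D against 2,4-D.

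PSAT1 and NUPR1 lay higher in exposed libraries with 2,4-D than in those without. PSAT1 was higher by 0.25 (log2, 95% interval 0.10 to 0.39) in glyphosate+2,4-D than in glyphosate and by 0.21 (0.07 to 0.35) in AMPA+2,4-D than in AMPA. NUPR1 was higher by 0.32 (0.13 to 0.51) and 0.19 (-0.01 to 0.38). In a contrast chosen after these values were seen, of both mixtures against glyphosate and AMPA alone, PSAT1 lay at 157 to 177 FPKM with 2,4-D added and 132 to 147 without, a log2 difference of 0.23 ± 0.05 (SE, limma adjusted p = 0.0223). NUPR1 lay at 6.96 to 8.59 FPKM with 2,4-D added and 5.86 to 6.76 without, a difference of 0.25 ± 0.06 (limma adjusted p = 0.0462). Both genes were higher in 6 of 6 libraries with 2,4-D added than in any of 6 without, and 0.873% of all genes were called higher and 1.24% did not overlap in this direction. The 2,4-D libraries alone, at 154 to 169 FPKM for PSAT1 and 6.92 to 7.63 for NUPR1, also lay above those 6.

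Neither call is firm. That of PSAT1 was lost without glyphosate replicate 3 (limma adjusted p = 0.0632), AMPA replicate 2 (0.0517), AMPA+2,4-D replicate 1 (0.0747) or glyphosate+2,4-D replicate 3 (0.0594). Its log2 difference was 0.21 to 0.24 with any of the 12 libraries left out. Over all genes 66 to 812 were then called, against 326 with all libraries. Leaving out AMPA+2,4-D replicates 1 and 3 together leaves 1 library in that group, so only the difference of PSAT1 is given, 0.21. The call of NUPR1 was lost when any of the 12 libraries other than AMPA+2,4-D replicate 2 was left out, at limma adjusted p = 0.0647 to 0.114. It was also lost with no filter (0.0845) and after rescaling to TPM (0.0758). Its log2 difference was 0.23 to 0.27 with a library left out, and 0.24 without AMPA+2,4-D replicates 1 and 3 together. The addition of 2,4-D to glyphosate and to AMPA was not called different for any of the 10 genes (limma adjusted p of at least 0.563), nor for any gene tested; for PSAT1 that difference was 0.03 ± 0.09 (SE) and for NUPR1 0.13 ± 0.13.

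**Figure D3:**
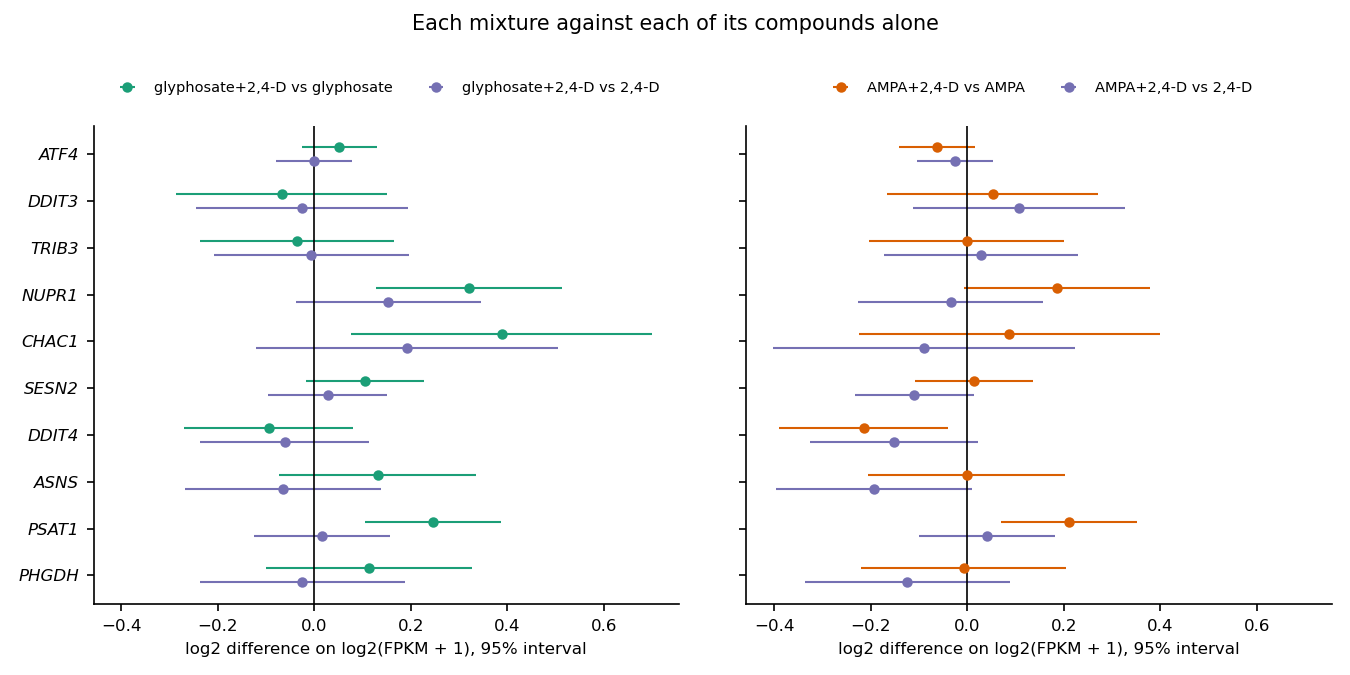
Log2 difference of each mixture from each of its compounds alone (points, 95% intervals, 3 libraries each) for the 10 genes, glyphosate+2,4-D left and AMPA+2,4-D right. The intervals of PSAT1 against glyphosate and against AMPA lie right of 0, at 0.10 to 0.39 and 0.07 to 0.35, and those against 2,4-D alone span 0.

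The lists below hold other genes of the pathway, and counts run over the 5 exposures against all unexposed libraries, where 22.6% to 25.1% of all genes tested were called lower and 25.0% to 28.0% higher. Enzymes of amino acid and one-carbon synthesis were lower in 7 to 9 of 10 members, with list medians of -0.49 to -0.39 (log2). The count was 8 to 9 against unexposed 4-6 (22% to 24% of all genes were lower) and 5 to 7 against unexposed 1-3 (26.3% to 27.7%). PSPH, which completes serine synthesis after PHGDH and PSAT1, averaged 21.7 to 26.2 FPKM in the exposed groups against 39.6 in unexposed cells (log2 -0.84 to -0.57, SE 0.06). PYCR1, the last step to proline, averaged 81.6 to 85.2 against 120 FPKM. GOT1, the cytosolic aspartate aminotransferase, was the exception and was higher in all 5 exposures, at 141 to 163 FPKM against 107.

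Amino acid transporters of the response were lower in 6 of 8 members in every exposure (22.6% to 25.1% of all genes), with medians of -0.44 to -0.40, and 1 was higher (25.0% to 28.0%). The glycine transporter SLC6A9 averaged 4.26 to 5.27 FPKM in exposed and 13.3 in unexposed cells. Its log2 change of -1.44 to -1.19 (SE 0.10) exceeded that of any of the 10 genes on log2(FPKM + 1). That scale understates the change of low genes such as CHAC1. The neutral amino acid transporter SLC1A4 averaged 12.1 to 12.6 FPKM against 22.3. SLC38A2, which encodes the glutamine transporter SNAT2 and is a known target of the amino acid response, went the other way, at 423 to 507 FPKM in exposed and 220 in unexposed cells (log2 0.95 to 1.21, SE 0.07). SLC3A2 was not called against all unexposed libraries; it was called lower in all 5 exposures against unexposed 1-3 and in none against 4-6, where its log2 difference was 0.07 to 0.10.

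Aminoacyl-tRNA synthetases of the response, with the tRNA export gene XPOT, were lower in 7 to 8 of 9 members and higher in none, with medians of -0.34 to -0.22, where 22.6% to 25.1% of all genes were lower. The count was 5 to 8 against unexposed 4-6 (22% to 24% of all genes were lower) and 8 to 9 against unexposed 1-3 (26.3% to 27.7%). WARS, for tryptophan, averaged 35.8 to 40.6 FPKM in exposed and 72.4 in unexposed cells. AARS, for alanine, averaged 95.1 to 101 against 120 FPKM, and XPOT 40.2 to 47.3 against 56.9. MARS was lower in all 5 exposures too, and its exons overlap DDIT3 as given above. The list of the other stress branch holds ATF6, XBP1 and their targets for protein folding in the endoplasmic reticulum. It was lower in 9 to 10 of 12 members (22.6% to 25.1% of all genes), with medians of -0.60 to -0.43. Higher were 0 to 1 (25.0% to 28.0%), namely ATF6 in 3 exposures (log2 0.08 to 0.19 over all 5), and DNAJB9 was not called. Among the lower genes SDF2L1 averaged 67.0 to 71.2 FPKM in exposed and 121 in unexposed cells, MANF 78.2 to 85.7 against 125, and CRELD2 14.7 to 15.4 against 26.6.

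Of 9 bZIP partners of ATF4, 3 to 4 were higher and 2 to 3 lower, counts near the shares of all genes (25.0% to 28.0% higher and 22.6% to 25.1% lower), so they are given for their members and not as a result about the list. ATF3, a stress-induced repressor known as an ATF4 target, averaged 14.97 to 18.6 FPKM in exposed and 8.71 in unexposed cells. FOS at 3.90 to 4.70 against 1.62 FPKM and JUN at 31.2 to 35.1 against 21.3 FPKM, the subunits of AP-1, were higher in all 5 exposures as well. CEBPB, the C/EBP partner of ATF4, was lower at 72.3 to 79.2 against 110 FPKM, as was JDP2. Of 11 other ATF4 targets tested, 5 to 6 were higher (25.0% to 28.0% of all genes) and 2 lower, a number near the share of all genes (22.6% to 25.1%). Lower were 2 to 3 against unexposed 4-6 (22% to 24% of all genes) and 4 against unexposed 1-3 (26.3% to 27.7%). The stress cytokine gene GDF15 averaged 494 to 594 FPKM in exposed and 342 in unexposed cells, and the oxidase gene ERO1A 51.8 to 58.5 against 31.9. CEBPB, which is on this list too, was lower. FGF21 did not pass the filter and was not tested.

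Of 7 genes for eIF2alpha, its kinases and its phosphatase subunits, 0 to 1 were lower and 1 to 3 higher. With 22.6% to 25.1% of all genes lower and 25.0% to 28.0% higher, these counts are not read as a result about the list. PPP1R15A, which encodes the stress-induced phosphatase subunit GADD34 and is itself an ATF4 target, was higher in 4 exposures (38.3 to 49.8 FPKM over all 5, against 35.7 in unexposed cells) and not with AMPA+2,4-D (limma adjusted p = 0.176). EIF2S1, which encodes eIF2alpha, averaged 10.7 to 11.7 against 9.58 FPKM and passed in 4 exposures, not with 2,4-D (0.0695). PPP1R15B passed in 3 exposures, at 14.1 to 15.4 FPKM over all 5 against 13.3. After rescaling to TPM, EIF2S1 and PPP1R15B were called in 0 exposures and PPP1R15A still in 4, while the kinase genes EIF2AK1 and EIF2AK2 were called lower in all 5. On that scale EIF2AK1 lay at log2 -0.17 to -0.12 and EIF2AK2 at -0.42 to -0.21, beside a median over all genes of -0.14 to -0.08. On the FPKM scale EIF2AK1 was called in 0 exposures and EIF2AK2 in 3. The share of all genes called lower after TPM is not given here. EIF2S1 was called higher in all 5 exposures against unexposed 4-6 and in 1 against unexposed 1-3, and PPP1R15A in 5 and in 4.

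Some list genes were called in all 5 exposures, in the same direction, against all unexposed libraries, after rescaling to TPM and against each unexposed set by itself, settings chosen after the data were seen. They include PSPH, PYCR1, GOT1, SLC6A9, SLC1A4, SLC38A2, WARS, AARS, XPOT, SDF2L1, MANF, CRELD2, ATF3, FOS, JUN, CEBPB, GDF15 and ERO1A. JDP2 and MARS, lower in all 5 against all unexposed libraries, were called in 4 and in 3 against unexposed 4-6. Among the rest, EIF2AK4, ATF5, SQSTM1, BBC3 and DNAJB9 were called in opposite directions under different scalings or unexposed sets. The medians of all 13405 genes stood at 0.0005 to 0.0137 beside the list medians above.

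**Figure D4:**
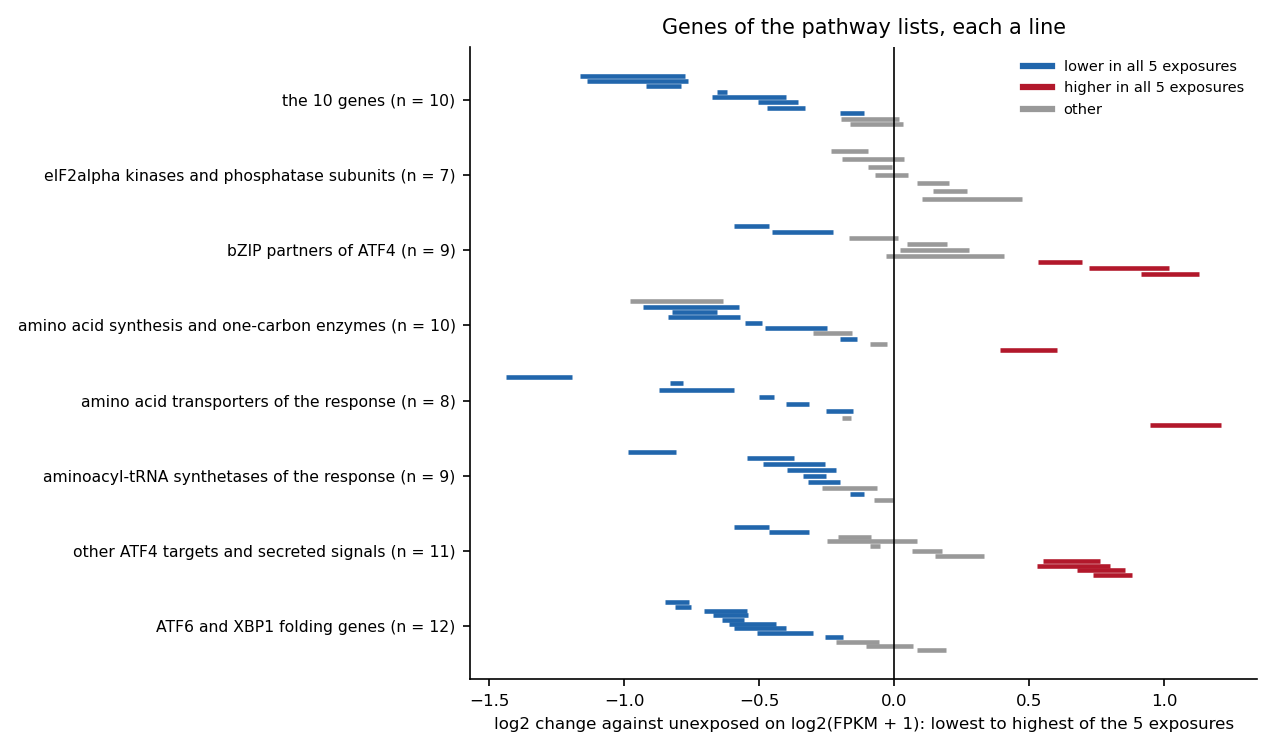
Each line is a gene and runs from its lowest to its highest log2 change over the 5 exposures against unexposed cells, in blue where called lower in all 5, in red where called higher in all 5 and in grey otherwise. The lists of amino acid synthesis, transport, tRNA charging and folding lie mostly left of 0, with GOT1 and SLC38A2 as red lines right of it.

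A pair of the 10 genes was set beside the protein-coding genes whose log2(FPKM + 1) was most alike over the 21 libraries, namely CHAC1, with the lowest median change, and DDIT4, with the highest. For CHAC1 these were AGMAT, MASP2 and SFT2D3, each at Pearson r = 0.96. AGMAT averaged 72.4 FPKM in exposed cells, 125 in unexposed 4-6 and 117 in unexposed 1-3. For DDIT4 they were TM4SF5 (r = 0.85), GTF2F1 (0.82) and TRIM28 (0.80). TM4SF5 averaged 112 FPKM in exposed cells, 135 in unexposed 4-6 and 111 in unexposed 1-3, the same order as DDIT4. The libraries share their grouping, so these values describe a pattern over groups.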

How the data were processed

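Total RNA was made into libraries with a SMARTer kit, per the labels. The authors aligned reads with HISAT2 2.0.5 to GRCh38 and counted them with featureCounts 1.5.0-p3, per the submitters' processing notes, and deposited FPKM values in 6 tables; use of the strand is not given in the sources used here. FPKM times gene length came out as whole reads to within 0.1 of a read for 100% of values. The gene lengths of all 10 genes equal their summed exons in GENCODE v29.

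The 13405 genes that all 6 tables list and that reach 1 FPKM in 3 or more libraries were fitted on log2(FPKM + 1) in R 4.3.3, using limma 3.58.1, by group means with a mean-variance trend over all 21 libraries, in 6 groups, or in 7 with the unexposed sets apart. Tests were two-sided, with Benjamini-Hochberg adjustment within each comparison and calls at 0.05. The procedure was checked on simulated data with independent noise and no difference between the unexposed sets, so the check does not cover such a difference.

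The 10 genes and the lists were chosen with earlier results of these data known. All 10 genes were named, and from each list up to 3 with the smallest summed ranks of p over the 5 exposures, plus the 3 protein-coding genes most alike to the lowest and the highest member; other genes named here were chosen after their values were seen. Other settings are given below.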

Additional observations from a re-analysis of the deposited data

How the results depend on the processing

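ATF4, DDIT3, TRIB3, NUPR1, CHAC1, SESN2 and PSAT1 were called lower in all 5 exposures against unexposed cells in each of 91 alternative values per gene, from voom on recovered reads, TPM, median-of-ratios scaling, no filter, a pseudocount of 0.1, the compared groups alone, a replicate block, each library left out, either unexposed set left out and AMPA+2,4-D replicates 1 and 3 left out. PHGDH lost a single call, given above. The settings are not independent of the main fit or of each other. Median-of-ratios factors were all within 1.0019 to 1.012, and voom used the library totals implied by the FPKM. Against unexposed cells, the replicate block gave the same log2 changes as leaving out unexposed replicates 4 to 6 together. No call turned direction, and 11 calls were lost, 10 of them of DDIT4, while 10 were gained, 5 each of DDIT4 and ASNS. DDIT4 also lost its call with no filter (limma adjusted p = 0.0606), with the compared groups alone (0.0999), without unexposed replicates 4 to 6 together (0.341) and with the replicate block (0.335).

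Settings that moved a count were these. Against unexposed cells, 1 of the 10 genes, DDIT4, was higher with AMPA under the replicate block and without unexposed replicates 4 to 6 together, against 0 otherwise. Against unexposed 1-3, the count higher with AMPA was 0 with no filter, with TPM and with the compared groups alone, against 1, and 0 to 1 with a library left out, as it was for glyphosate. The replicate block gave 1 gene higher for glyphosate+2,4-D against glyphosate (NUPR1), 1 higher (PSAT1) and 1 lower (DDIT4) for AMPA+2,4-D against AMPA, and TPM 1 higher there (PSAT1). Over all genes the block gave 13 and 1 calls for glyphosate+2,4-D against glyphosate and against 2,4-D, and 1 for AMPA+2,4-D against 2,4-D. The F test among exposures called 2 genes, PSAT1 and NUPR1, under the block and with the exposed groups alone. Over all genes, AMPA+2,4-D against unexposed cells gave 3565 calls without its replicates 1 and 3, where the lone library was assumed to vary like the other groups, against 6758. The cause was not tested. Deviations of same-numbered libraries correlated at -0.119 to 0.0598 between exposed and unexposed groups and at -0.0608 to 0.0884 between exposures, where 14 of 30 were highest with their own number, so numbers were not taken as pairs. The block could not be fitted against unexposed 4-6, whose numbers no other group has.

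mRNA levels do not measure ATF4 protein. CHAC1 and ASNS rest on few reads. Median-of-ratios factors were 1.0019 to 1.012, whereas TPM lowered the median of all genes. With 3 libraries a group, a p that missed the threshold between exposures does not show equal levels.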
